A study of Mus musculus with 6 samples.

Results

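The interferon-stimulated genes and the regulators that switch them on were followed as a set of 51 genes in mouse CD8+ T cells grown to resemble central memory (CM) cells or effector/effector memory (E/EM) cells. Their members were taken by symbol, as every probe set of the 3 value tables whose platform annotation gives a member alone, and the tables named 15964 genes in all. Of the 51 members, 43 had such a probe set and together they had 70. The other 8, Irf2, Oas1a, Ifi44, Gbp4, Tgtp1, Zbp1, Ly6a and Trex1, were not analysed here.

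Both kinds of cells came from spleen and lymph nodes of female mice with the P14 T cell receptor transgene on a C57Bl/6 background. All were given the peptide that this receptor recognises for 2 days and then a cytokine for 7 days, which was IL-15 for CM cells and IL-2 for E/EM cells. Each kind was then sorted for high (CM) or low (E/EM) amounts of a surface marker. Its RNA was hybridised to 1 array of each of 3 types with differing probe sets, called SubA, SubB and SubC. The labels give no age and no number of mice, and describe both kinds as generated in culture, so they are models of the cells that form in an animal. With 1 array per kind and type there were no replicates, no p-value was computed, and every value describes these arrays. Where a gene had several probe sets, their standard deviation (SD) is given as a technical spread, and a gene with no SD rests on 1 probe set.

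Interferons bind receptors on the cell surface. Type I interferons use the Ifnar1 and Ifnar2 chains, and interferon gamma uses a receptor that includes Ifngr2. The receptors signal through Janus kinases to STAT proteins. STAT2 joins IRF9 in a complex that binds the interferon-stimulated response element (ISRE) of target genes, and STAT dimers bind the gamma-activated site (GAS). The induced proteins sense foreign nucleic acid, block translation, degrade RNA, or act as GTPases on the membranes around pathogens. Some of the regulators, such as Irf8, also answer to antigen receptor signals in lymphocytes.

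The interferon genes did not differ as a block between CM and E/EM cells. Signals above the floor of the table on both arrays gave 37 members a ratio on the log2 scale, with CM signal divided by E/EM signal, and the floor is the higher of the 2 arrays' 90th percentiles over 15 bacterial control probe sets, 31.28 on SubA, 88.12 on SubB and 194.34 on SubC. Of these 37, 18 lay above 0 and 19 below, against 49.7% of all 10946 measured genes above 0. The median was -0.015, against -0.0025 for all measured genes. The members' middle 50% ran between -0.51 and 0.36, and that of all genes between -0.33 and 0.29. At least 2-fold lower in CM cells were 4 members, Irf8, Isg20, Oas2 and Mx1, or 10.8% of the 37, beside 5.61% of all measured genes. At least 2-fold higher was 1 member, Ifit2, or 2.70%, beside 2.73% of all measured genes. By a 1.5-fold rule 8 members were lower (21.6%, beside 13.9% of all genes), and 7 were higher (18.9%, beside 10.1%). The other 22 measured members differed by less than 1.5-fold.

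**Figure D1:**
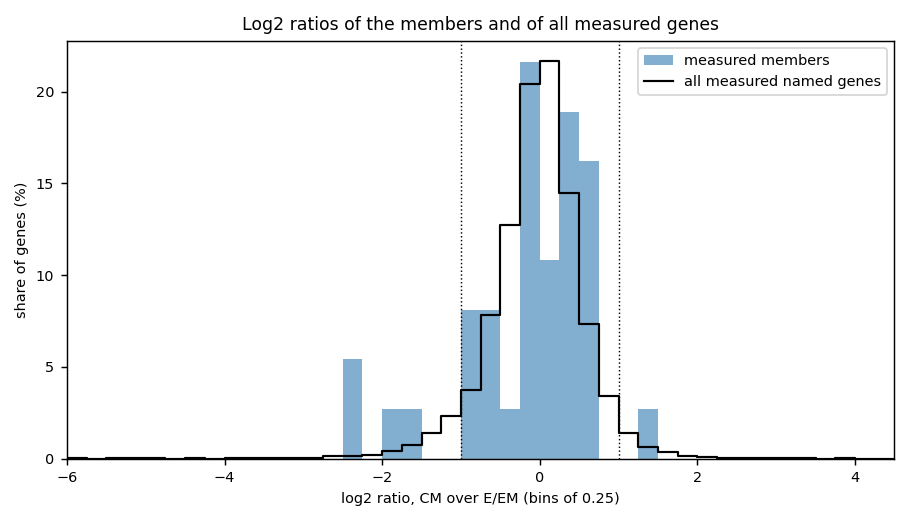
Share of genes in bins of log2 ratio (CM over E/EM, horizontal axis), for the 37 measured members (bars) and for all 10946 measured genes (line), with dotted lines at 2-fold. Members lie on both sides of 0, and 4 lie beyond the lower and 1 beyond the upper dotted line.

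The letters of the ISRE and the GAS were searched for in promoter windows of the members. RefSeq windows of GRCm38.p6, which run from 250 bases before to 50 bases after a gene's start, were found for 39 of the 51 members. The ISRE core was searched on both strands as the letters GAAA, any 2 bases and GAAA again, and occurred in the windows of 18 of these 39 members (46.2%), against 3.99% of 27025 genes with a window. The GAS core was searched as TTC, any 3 bases and GAA, which reads the same on both strands, and occurred in 15 members (38.5%), against 9.55% of genes. Both motifs occurred in 6 members. The 5 windows below were chosen after the values were seen, as the member with the lowest ratio (Irf8), a pair of GTPase genes that were lower in CM cells (Igtp and Gbp3), a gene that was higher (Trim21), and the gene of the ISG15 modifier. Capitals mark the motif letters.
Irf8: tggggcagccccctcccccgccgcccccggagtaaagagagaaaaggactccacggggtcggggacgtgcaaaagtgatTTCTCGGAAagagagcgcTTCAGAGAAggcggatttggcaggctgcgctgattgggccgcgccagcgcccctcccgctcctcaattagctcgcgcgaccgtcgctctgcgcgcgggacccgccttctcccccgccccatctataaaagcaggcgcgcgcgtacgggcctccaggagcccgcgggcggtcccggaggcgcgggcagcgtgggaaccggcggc
Igtp: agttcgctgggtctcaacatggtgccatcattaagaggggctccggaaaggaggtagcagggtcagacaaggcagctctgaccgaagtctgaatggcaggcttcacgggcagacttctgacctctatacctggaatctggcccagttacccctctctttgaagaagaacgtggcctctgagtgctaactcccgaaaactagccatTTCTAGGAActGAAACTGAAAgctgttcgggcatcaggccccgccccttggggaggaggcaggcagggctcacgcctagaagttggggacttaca
Gbp3: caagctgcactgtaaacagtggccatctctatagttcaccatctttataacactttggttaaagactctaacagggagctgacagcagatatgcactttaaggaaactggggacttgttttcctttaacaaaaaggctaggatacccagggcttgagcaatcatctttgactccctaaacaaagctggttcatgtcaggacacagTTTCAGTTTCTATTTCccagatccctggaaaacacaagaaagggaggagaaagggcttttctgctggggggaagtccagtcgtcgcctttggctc
Trim21: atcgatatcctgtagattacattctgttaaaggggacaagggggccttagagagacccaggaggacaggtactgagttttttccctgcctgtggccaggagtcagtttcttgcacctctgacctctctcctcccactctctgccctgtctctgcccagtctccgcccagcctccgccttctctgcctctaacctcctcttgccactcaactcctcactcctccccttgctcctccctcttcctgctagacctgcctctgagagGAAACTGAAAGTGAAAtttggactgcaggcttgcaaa
Isg15: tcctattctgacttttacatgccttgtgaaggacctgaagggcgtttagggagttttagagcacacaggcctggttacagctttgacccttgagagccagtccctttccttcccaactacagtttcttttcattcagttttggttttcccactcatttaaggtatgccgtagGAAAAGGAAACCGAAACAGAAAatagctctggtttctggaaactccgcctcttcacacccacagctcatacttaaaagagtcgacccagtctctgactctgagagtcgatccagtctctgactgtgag
The Irf8 window is chr8:120736108-120736407 on the plus strand. The Igtp window is chr11:58199306-58199605 on the plus strand. The Gbp3 window is chr3:142559794-142560093 on the plus strand. The Trim21 window is chr7:102565433-102565732 on the minus strand. The Isg15 window is chr4:156200769-156201068 on the minus strand. In Irf8 the capitals are GAS letters, 171 and 153 bases before the start, and no ISRE letters were found in this window. In Igtp a GAS match 45 bases before the start and an ISRE match 34 bases before it stand close together without overlapping. In Gbp3, Trim21 and Isg15 the capitals are ISRE matches in tandem that overlap, 2 in Gbp3, 2 in Trim21 and 3 in Isg15. Those of Trim21 begin 13 and 19 bases after the annotated start. A match describes the letters only.

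The receptor chains had signals at least 5.14 times the floor and ran from equal to higher in CM cells. Ifnar1, a chain of the type I interferon receptor, had SubA signals of 801.7 in CM cells and 650.8 in E/EM cells, and SubC signals of 10261.7 and 5268.3 in the same order. Its log2 ratio was 0.63 ± 0.47 (SD, 2 probe sets), or 1.55-fold higher in CM cells. Ifnar2, the other chain, had 1577.4 in CM and 855.6 in E/EM cells on its brighter SubA probe set, and 384.1 and 295.9 on its dimmer one. Its log2 ratio was also 0.63 ± 0.36 (SD, 2 probe sets). Both probe sets of each Ifnar gene were thus higher in CM cells. Ifngr2, the second chain of the interferon gamma receptor, had a SubA signal of 242.6 in CM and 160.9 in E/EM cells, but its SubB signal was equal, 5039.0 and 5041.6. The mean of its log2 ratios was 0.30 ± 0.42 (SD, 2 probe sets). Of the 6 probe sets of the 3 receptor genes, 5 lay above 0, beside 49.7% of all measured genes, a share counted by gene. Ifngr1, the partner of Ifngr2, is no member and was picked out after its value was seen, and had signals of 2011.6 in CM and 1999.8 in E/EM cells.

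Of the measured STATs, one was lower in CM cells and the other had no settled direction. Stat2, which carries the type I signal, had SubB signals of 584.5 in CM cells and 810.6 in E/EM cells, a log2 ratio of -0.47, and its other probe set was under the floor. Stat3, which answers to many cytokines including IL-6 and IL-10 as well as interferon, had probe sets that disagreed. On SubA it had 1031.7 in CM and 1344.1 in E/EM cells on one probe set, and 798.4 and 1384.4 on the other. On SubC it had 1325.3 in CM and 922.3 in E/EM cells. The mean of the 3 ratios, -0.22 ± 0.67 (SD), therefore has no settled direction. Another SubC probe set was above the floor in E/EM cells alone, with 91.5 in CM and 200.7 in E/EM cells, or at least 1.03-fold lower. Without probe sets that other genes may share, the log2 ratio of Stat3 was -0.59.

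Among the interferon regulatory factors (IRFs), Irf8 stood apart. Irf8, a factor of myeloid and B cell development that activated CD8+ T cells also induce, had a SubA signal of 251.1 in CM cells and 1261.7 in E/EM cells. That is 5.02-fold lower in CM cells (log2 ratio -2.33), and 0.493% of all measured genes had a lower ratio. The CM signal was still 8.03 times the floor. Irf5, a factor best known in macrophages and B cells, had 194.7 in CM and 323.3 in E/EM cells, a log2 ratio of -0.73, and its SubC probe set was under the floor on both arrays. By the mean over probe sets, Irf8 and Irf5 were the only IRFs past 1.5-fold, while Irf7 had a log2 ratio of 0.62 on its brightest probe set.

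The IRFs that act directly in interferon responses differed little. Irf9, the DNA-binding partner of STAT2, had 609.4 in CM cells and 615.8 in E/EM cells, a log2 ratio of -0.02. Irf1, the classic interferon gamma target, had 1526.3 in CM and 1661.9 in E/EM cells, a log2 ratio of -0.12. Neither differed beyond the usual gap between probe sets of a gene, whose median SD over all genes with several was 0.32. Irf3, which nucleic acid sensors activate, had 613.9 in CM and 521.7 in E/EM cells on its brighter probe set, and a log2 ratio of 0.26 ± 0.03 (SD, 2 probe sets). Irf7, the amplifier of type I interferon production and itself an interferon target, had SubC signals of 7704.4 in CM and 5009.9 in E/EM cells. On SubA it had 259.2 in CM and 233.3 in E/EM cells on one probe set, and 104.2 and 84.3 on the other. All 3 Irf7 probe sets lay above 0, with a mean log2 ratio of 0.36 ± 0.24 (SD). Without probe sets that other genes may share, among them the SubC one, the log2 ratio of Irf7 was 0.15.

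Because Irf8 and Irf5 are also genes of B and myeloid cells, markers of those cells are given beside them. Of 8 B cell markers, 7 had a probe set, and 6 were above the floor in CM cells and 6 in E/EM cells. Their summed SubA signal was 679.2 in CM and 688.5 in E/EM cells, of which Cd79b had 370.9 and 284.0. The weaker signals of Blk, Ms4a1, Cd79a and Pax5, where measured in both, were only 1.35 to 2.16 times the floor. Of 9 macrophage and monocyte markers, 6 and 6 were above the floor, with sums of 2868.3 in CM and 2369.9 in E/EM cells. Ctss made up most of that sum, with 2362.3 in CM and 1615.1 in E/EM cells. Of the 6 measured in both, 5 had log2 ratios below 0 and 1 above (16.7%, beside 49.7% of all measured genes above 0). Their median was -0.44, and they ran between -1.16 for Cd68 and 0.55 for Ctss, with -0.06 for Csf1r. Itgam, Lyz2 and Adgre1 lay under the floor on every array that carried them. Of 9 dendritic cell markers, 7 and 7 were above the floor, with sums of 921.0 in CM cells and 1418.6 in E/EM cells, and Siglech and Zbtb46 lay under it on both arrays. Of the 7 measured in that list 5 lay below 0 and 2 above (28.6%, beside 49.7% of all measured genes). The median log2 ratio of these 7 was -0.71. The class II gene H2-Ab1 had 211.0 in CM and 516.5 in E/EM cells. Itgax, which encodes CD11c, went the opposite way, with 130.3 in CM and 43.1 in E/EM cells, the latter 1.38 times the floor. H2-Aa had a log2 ratio of 0.34 on a SubC probe set whose weaker signal was 1.30 times the floor. Its other probe sets lay under the floor. Among the genes lower in CM cells, the weaker SubA signal was 1.60 times the floor for H2-Eb1 and 6.75 times for H2-Ab1. Of the 5 measured B cell markers 3 lay below 0 and 2 above (40%), with a median of -0.32. Of 6 natural killer cell markers, only 3 had a probe set, and 1 was above the floor in CM and 2 in E/EM cells. Eomes, a factor that memory CD8+ T cells also express, made up most of that list's sum of 2853.5 in CM and 1671.8 in E/EM cells, and Ncr1 lay under the floor. T cell markers summed to 50125.7 in CM and 49542.1 in E/EM cells, and Cd8a had 5882.7 and 5133.8. Of the 9 measured T cell markers 5 lay below 0 and 4 above (44.4%), with a median of -0.01. They ran between -0.72 for Cd3g, with 3079.7 in CM and 5083.7 in E/EM cells, and 0.50 for Cd8b1. The part of other cell types in the Irf8 and Irf5 differences was not tested. In RNA from many cells, fewer cells of a type and less RNA per cell cannot be told apart.

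**Figure D2:**
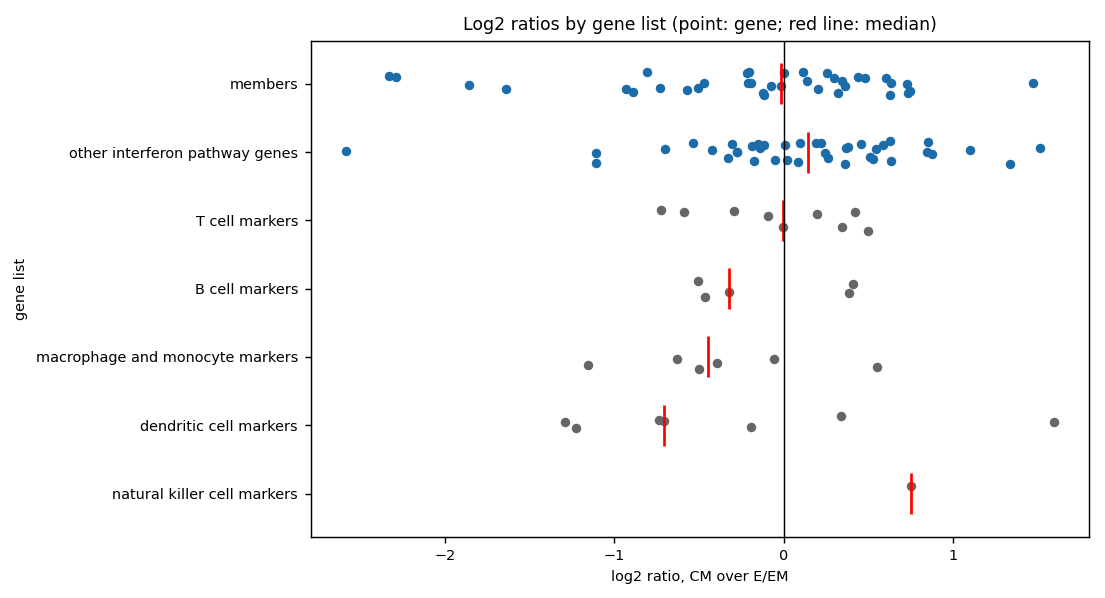
Log2 of CM signal over E/EM signal (horizontal axis) for each measured gene of the members, of the other interferon pathway genes and of 5 marker lists, with a red line at each list's median. The medians of the members (-0.015) and of the T cell markers (-0.01) lie near 0, and that of the dendritic cell markers at -0.71.

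Of the genes that sense foreign nucleic acid, Ddx58 was near equal, Dhx58 was higher in CM cells, and Ifih1 had no settled direction. Ddx58, which encodes the RNA sensor RIG-I, had SubB signals of 3120.0 in CM cells and 2885.4 in E/EM cells, a log2 ratio of 0.11. Ifih1, which encodes the sensor MDA5, had 84.9 in CM and 115.2 in E/EM cells on SubA, and 335.5 and 328.5 on SubC. Its 2 ratios had opposite signs and a mean of -0.20 ± 0.33 (SD). Dhx58, which encodes LGP2, a regulator of both sensors, had 337.3 in CM and 221.7 in E/EM cells, a log2 ratio of 0.61. A second Dhx58 probe set was above the floor in CM cells alone, with 137.4 against 32.7, or at least 1.56-fold higher.

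The classic interferon-induced antiviral genes went in different directions, several of them with signals near the floor. Ifit2, whose protein binds viral RNA and blocks translation, had a SubA signal of 170.3 in CM cells and 61.4 in E/EM cells. It was 2.77-fold higher in CM cells, with its weaker signal 1.96 times the floor. Its relative Ifit3 was above the floor in CM cells alone, at 35.9 in CM and 6.3 in E/EM cells, or at least 1.15-fold higher. Ifit1, the third of the family, lay under the floor in both, at 4.8 and 8.9. Usp18, the protease that removes ISG15 from proteins and dampens type I interferon signalling, was also above the floor in CM cells alone. It had 45.6 in CM and 8.9 in E/EM cells, or at least 1.46-fold higher. Isg15, the ubiquitin-like modifier itself, went the opposite way, with 119.5 in CM and 169.8 in E/EM cells, a log2 ratio of -0.51.

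Mx1 and Oas2 were lower in CM cells. Mx1 encodes an antiviral GTPase in wild mice, but in the C57BL/6J assembly GRCm38.p6 RefSeq lists Mx1 and Mx2 as transcribed pseudogenes, so its signal reports transcription only. Mx1 had a SubA signal of 81.1 in CM cells and 252.5 in E/EM cells, 3.11-fold lower in CM cells. Mx2 was above the floor in E/EM cells alone, at 24.6 in CM and 32.8 in E/EM cells, or at least 1.05-fold lower. Oas2, an enzyme that makes the 2-5A signal for RNA decay, had SubB signals of 102.6 in CM and 371.6 in E/EM cells, 3.62-fold lower in CM cells. Its CM signal was only 1.16 times the floor. Oas3, a larger enzyme of the same kind, had 15091.7 in CM and 12110.8 in E/EM cells on SubC, a log2 ratio of 0.32. Oasl2, a related gene, was under the floor on both arrays.

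Isg20 had the second lowest ratio of the members. Isg20, an exonuclease that degrades RNA, had a SubA signal of 295.9 in CM cells and 1447.8 in E/EM cells, 4.89-fold lower in CM cells (log2 ratio -2.29). Its CM signal was 9.46 times the floor. Adar, which edits adenosine to inosine in double-stranded RNA, had 4 probe sets on 3 array types, all above 0, with a mean log2 ratio of 0.44 ± 0.22 (SD). Its brightest had 1563.9 in CM and 1395.2 in E/EM cells. Eif2ak2, which encodes the translation-blocking kinase PKR, gave 80.6 in CM and 80.7 in E/EM cells on SubA, but 377.5 and 134.2 on SubB. Its mean log2 ratio of 0.75 ± 1.06 (SD, 2 probe sets) therefore rests on 1 of the 2, whose weaker signal was 1.52 times the floor.

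Rsad2 and Bst2 complete the antiviral effectors. Rsad2, which encodes viperin, had SubB signals of 209.9 in CM cells and 207.8 in E/EM cells, and SubA signals of 39.1 and 43.7. Its log2 ratio was -0.07 ± 0.12 (SD, 2 probe sets). Bst2, which encodes tetherin, a protein that holds budding virus on the cell, had SubB signals of 3674.9 in CM and 5466.7 in E/EM cells, a log2 ratio of -0.57. A second Bst2 probe set was above the floor in E/EM cells alone, with 8.5 in CM and 118.0 in E/EM cells, or at least 1.34-fold lower in CM cells.

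**Figure D3:**
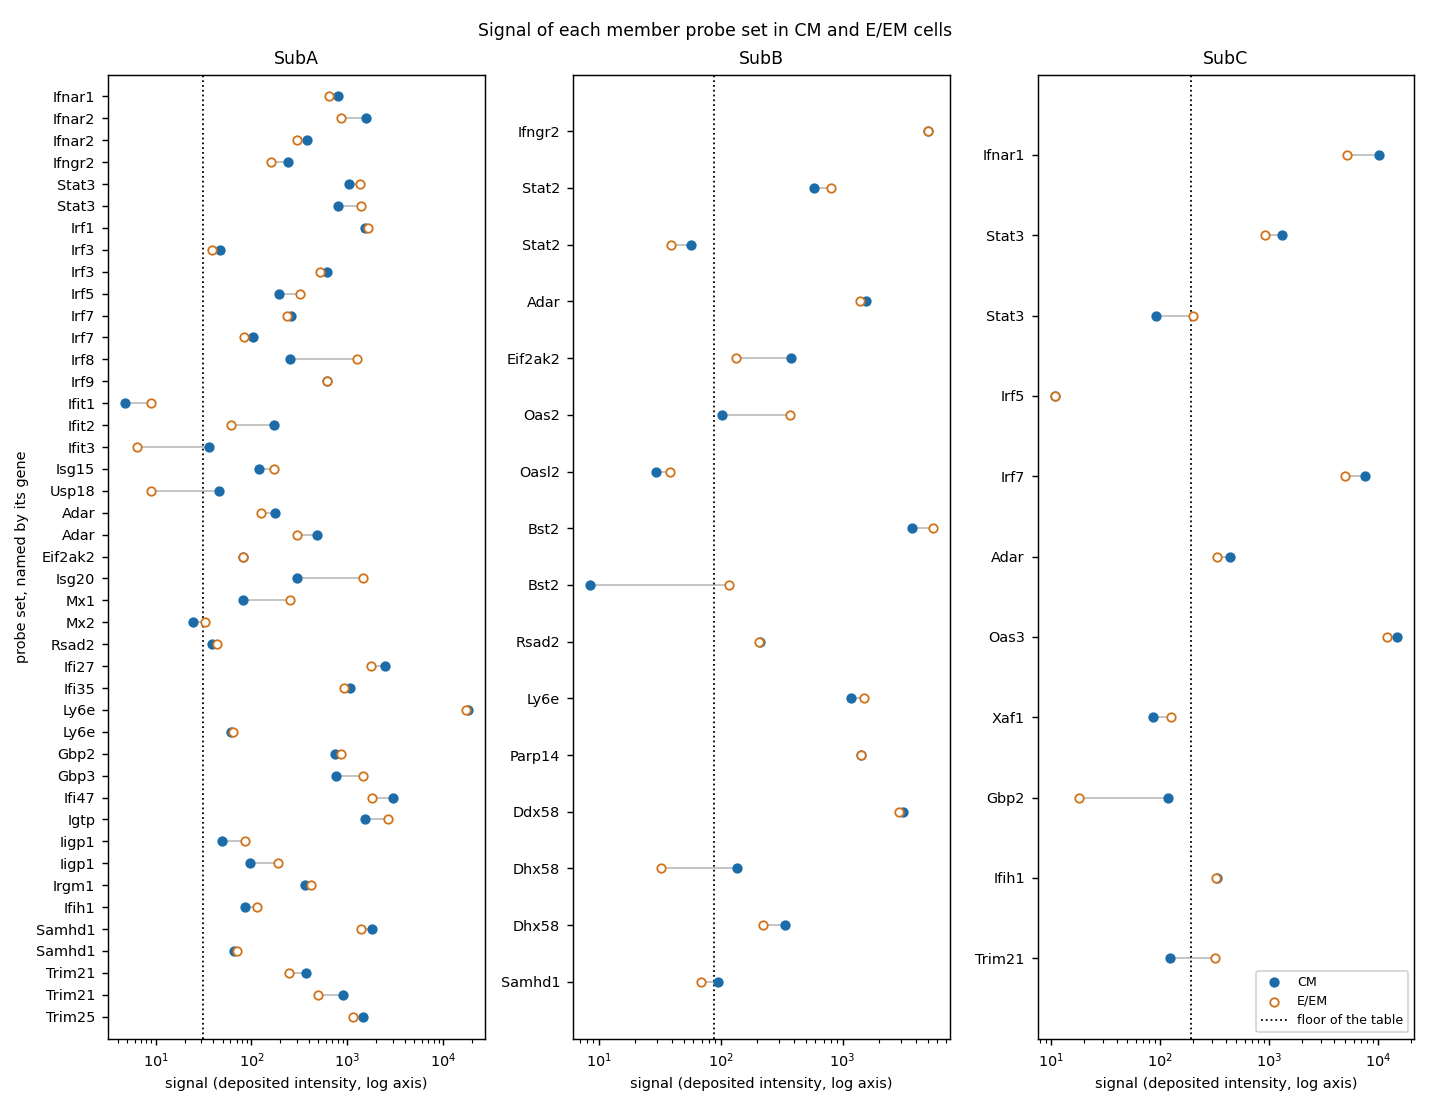
Signal of the 70 member probe sets (log axis) in CM (filled) and E/EM cells (open), by array type, with the floor of each table dotted. Wide gaps show Irf8, Isg20 and Mx1 lower in CM cells on SubA and Oas2 on SubB, while the Ifnar1 points on SubC are 10261.7 in CM and 5268.3 in E/EM cells.

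Interferon-induced GTPases, which attack the vacuoles of intracellular parasites and bacteria, were split. Of the 6 measured, 0 passed 2-fold. By the 1.5-fold rule 3 were lower in CM cells (50%, beside 13.9% of all measured genes) and 1 was higher (16.7%, beside 10.1%). The median log2 ratio was -0.51, against -0.0025 for all measured genes, with 1 above 0, beside 49.7% of all genes. Gbp3, a guanylate-binding protein gene, had 764.6 in CM cells and 1461.3 in E/EM cells, a log2 ratio of -0.93. Igtp, of the immunity-related GTPase family, had 1532.7 in CM and 2679.2 in E/EM cells, a log2 ratio of -0.81. Iigp1, of that family too, had 96.2 in CM and 187.3 in E/EM cells on one SubA probe set, and 48.7 and 85.9 on the other. Its log2 ratio was -0.89 ± 0.10 (SD, 2 probe sets), so these 3 genes lay between 1.75 and 1.91-fold lower in CM cells.

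Gbp2 and Irgm1 were close to equal. Gbp2 had 750.4 in CM cells and 856.8 in E/EM cells on SubA, a log2 ratio of -0.19, and its SubC probe set was under the floor. Irgm1, a regulator of the other immunity-related GTPases, had 364.5 in CM and 421.7 in E/EM cells, a log2 ratio of -0.21. Ifi47, also an immunity-related GTPase, was the exception, with 2995.0 in CM and 1806.0 in E/EM cells, a log2 ratio of 0.73. Genes of these families resemble each other in sequence, so a probe set may share signal between relatives.

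Trim21 and Trim25 had mean log2 ratios above 0, and Samhd1 had no settled direction. Trim21, an intracellular antibody receptor and ubiquitin ligase, had 901.5 in CM cells and 493.5 in E/EM cells on one SubA probe set, and 370.3 and 244.0 on the other. The mean log2 ratio of Trim21 was 0.74 ± 0.19 (SD, 2 probe sets). A SubC probe set went the opposite way, at 122.4 in CM cells, under the floor, and 318.9 in E/EM cells, and with the floor halved the mean became 0.03. Trim25, the ubiquitin ligase that aids RIG-I signalling, had 1450.0 in CM and 1143.3 in E/EM cells, a log2 ratio of 0.34. Samhd1, which destroys deoxynucleotides, had 1817.1 in CM and 1383.6 in E/EM cells on its brightest probe set, but 65.5 and 70.9 on another. Its mean log2 ratio was 0.14 ± 0.36 (SD, 2 probe sets), and 0.39 without probe sets that other genes may share. A SubB probe set of Samhd1 was above the floor in CM cells alone, with 95.8 in CM and 69.5 in E/EM cells, or at least 1.09-fold higher.

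The remaining members differed by less than 1.5-fold. Ifi27 had 2494.9 in CM cells and 1791.5 in E/EM cells, a log2 ratio of 0.48. Ifi35, which forms a complex with the NMI protein, had a log2 ratio of 0.20, and Parp14, an ADP-ribosyltransferase, had 0.0040. Ly6e, a small membrane-anchored protein, had 18178.0 in CM and 17375.3 in E/EM cells on its brightest probe set, which may share signal with other genes. On SubB Ly6e had 1177.4 in CM and 1507.9 in E/EM cells, a log2 ratio of -0.36. Its mean log2 ratio was -0.12 ± 0.22 (SD, 3 probe sets). Xaf1, an apoptosis-promoting interferon target, lay under the floor on both arrays.

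**Figure D4:**
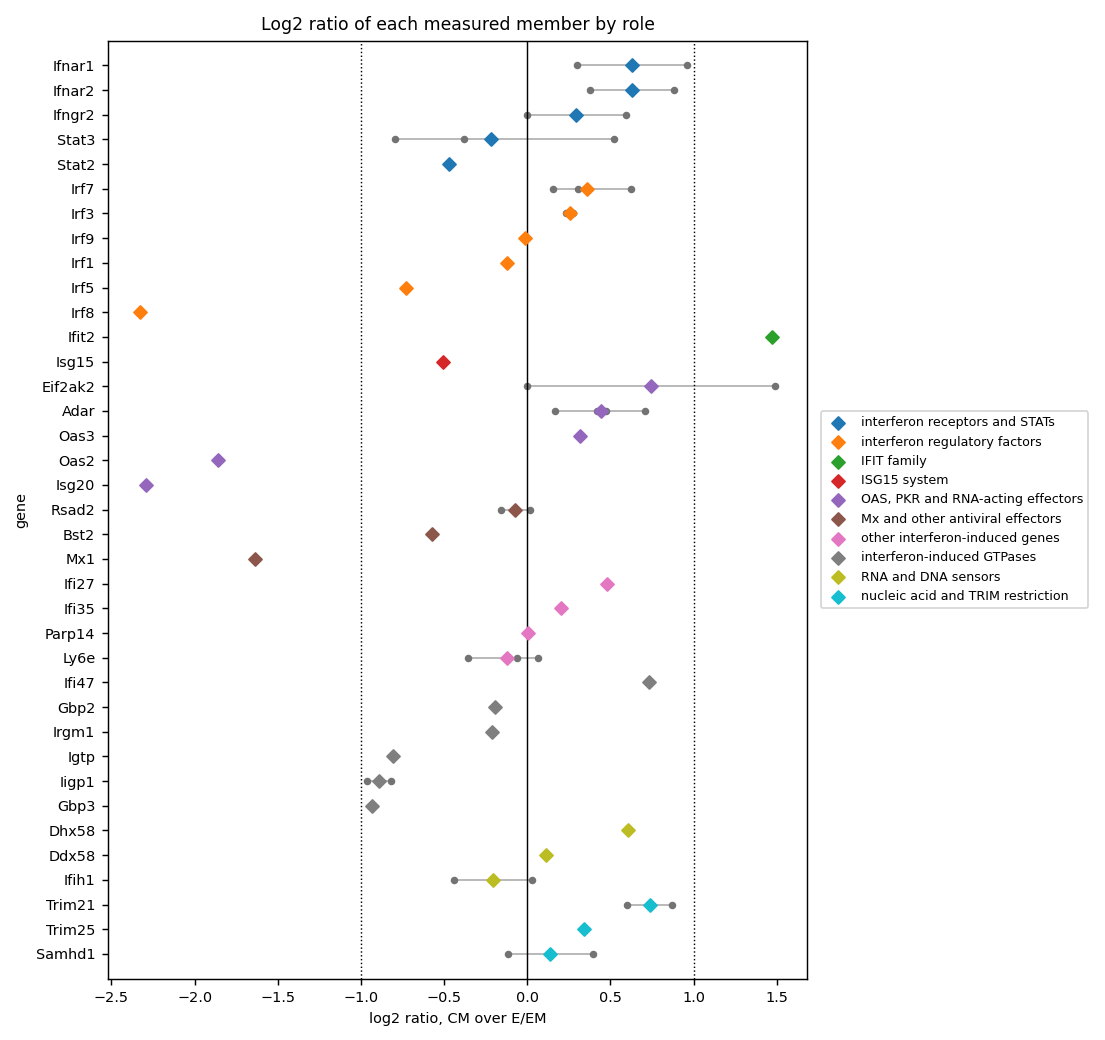
Log2 of CM signal over E/EM signal (horizontal axis) for the 37 measured members grouped by role, with diamonds for genes, small grey points for the probe sets of genes with several, and dotted lines at 2-fold. The receptors sit above 0, 5 of 6 GTPases below it, and Irf8 and Isg20 furthest to the left at -2.33 and -2.29.

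Probe sets of a member agreed about as often as those of other genes. Of 14 members with at least 2 probe sets above the floor on both arrays, 7 had ratios of one sign, against 51.4% of 4094 genes. The median SD over probe sets was 0.29 for these members and 0.32 for all such genes. The 4 members at least 2-fold lower and Ifit2 were measured by 1 probe set each, so none of these 5 has a second probe set as a check.

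Grouped by the letters in their promoter windows, the measured members overlapped widely. The 13 with ISRE letters had a median log2 ratio of -0.20, with 4 above 0 and 9 below, and ran between -0.93 for Gbp3 and 0.75 for Eif2ak2. The 17 without had a median of 0.26, with 11 above 0 and 6 below, and ran between -2.33 and 1.47. The 12 with GAS letters had a median of 0.17, and the 18 without had -0.04. Among the 30 with a window, Irf8 and Isg20, the lowest, and Ifit2, the highest, had GAS letters and no ISRE letters in the windows searched. No window was analysed here for 7 of the 37 measured members, among them Mx1 and Oas2, which are 2 of the 4 members at least 2-fold lower.

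**Figure D5:**
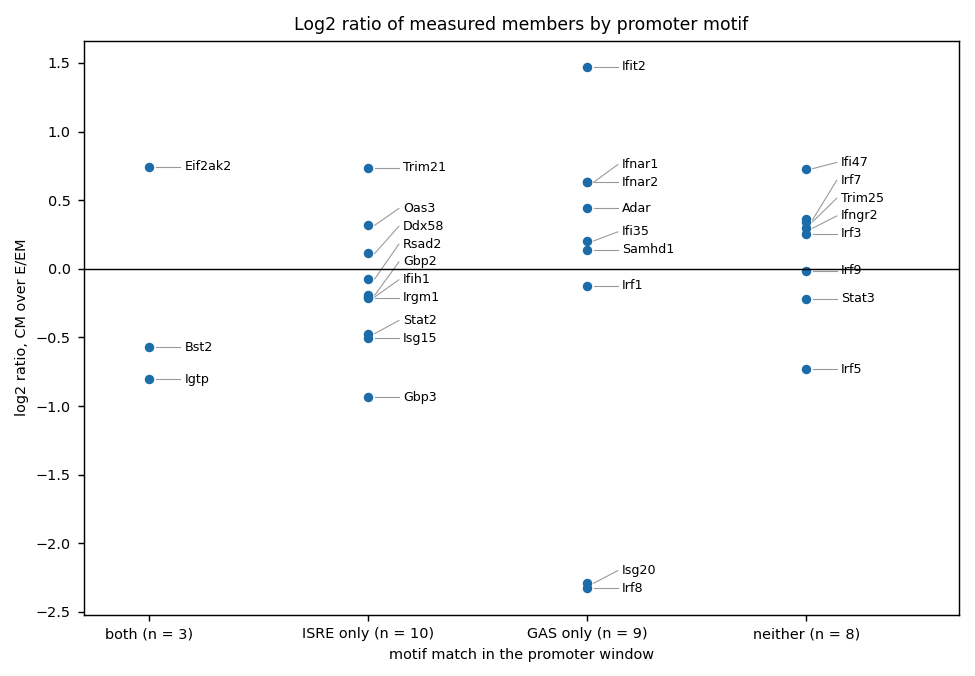
Log2 of CM signal over E/EM signal (vertical axis) of the 30 measured members with a promoter window, by the motif letters found in it. Members with ISRE letters lie between -0.93 and 0.75, while Irf8, Isg20 and Ifit2 fall in the group with GAS letters only, and Mx1 and Oas2 are not shown.

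The wider pathway was mixed too. A second list held 66 further interferon pathway genes, of which 57 had a probe set and 40 a ratio. Of these 40, 3 were at least 2-fold lower in CM cells (7.5%, beside 5.61% of all measured genes) and 3 at least 2-fold higher (7.5%, beside 2.73%). Their median was 0.14, against -0.0025 for all measured genes. Above 0 lay 24 (60%, beside 49.7% of all measured genes) and below it 16. Ifitm3, a membrane protein that blocks virus entry, had the widest gap, with 1157.3 in CM cells and 6942.7 in E/EM cells, 6.00-fold lower in CM cells. Gbp6, another guanylate-binding protein gene, had 883.9 in CM and 1909.4 in E/EM cells, a log2 ratio of -1.11. Trafd1, a negative regulator of innate signalling, had -1.11 ± 0.11 (SD, 2 probe sets).

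In the opposite direction Sp100, a nuclear body protein, was higher in CM cells on all 3 of its probe sets. Over these its log2 ratio was 1.10 ± 0.39 (SD, 3 probe sets), with 3165.9 in CM and 1437.7 in E/EM cells on the brightest. Ifi27l2a, a relative of Ifi27, had 616.4 in CM and 243.7 in E/EM cells, a log2 ratio of 1.34. Herc6, the main ligase that attaches ISG15 in mouse cells, had 492.9 in CM and 172.4 in E/EM cells, a log2 ratio of 1.52. Of the genes of the interferons themselves, Ifng and Ifnb1 were picked out after their values were seen, and lay near the floor. Ifng had 31.6 in CM cells and 34.3 in E/EM cells, and Ifnb1 had 30.0 and 39.7, beside the SubA floor of 31.28.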

How the data were processed

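Gene expression was measured in 6 arrays, 1 per kind of cell and array type, grouped by their titles. The authors deposited a table of linear intensities per array type. The software was not given in the sources used here, and neither were detection calls. The mean of each array without its lowest and highest 2% lay between 500.1 and 500.3, so values were used as deposited. CM and E/EM signals were compared only within a table, but a gene's brightest probe set was picked by signal across tables. Probe sets above the floor made up 64.3% to 69.1% of the SubA and SubB arrays but 47.1% (CM) and 47.3% (E/EM) of the SubC arrays, where weak genes are less precise.

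A gene's log2 ratio is the mean over its probe sets above the floor on both arrays. A probe set above the floor on 1 array gave a bound, signal over floor. Probe sets with several symbols named no gene, and control probe sets were left out. Symbols came from GEO's platform annotation. By Entrez identifier, 43 of the members' symbols matched a RefSeq table of GRCm38.p6 and 0 changed. The members and lists were chosen with earlier results of these data known. Every member was to be accounted for, with both signals for receptors, STATs, IRFs, and members past 1.5-fold or bounded. Genes of the second list were named if at least 2-fold different or bounded at 4-fold or more. Calculations used Python 3.11.15, pandas 2.3.3 and NumPy 2.4.6 and were tested on simulated data. Alternatives were quantile normalization, centring, the floor halved or doubled, the brightest probe set, leaving out shared probe sets, SubA alone, SubC left out, and a 1.5-fold rule.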

Additional observations from a re-analysis of the deposited data

Results flagged for a closer look

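Probe sets assigned to more than 1 gene were left out of the comparisons, and 3 of those that include a member had signal above the floor. A SubA probe set given to Tgtp2 and Tgtp1 together, which encode near-identical GTPases, had signals of 2966.1 in CM cells and 3037.9 in E/EM cells, a log2 ratio of -0.035. A SubB probe set given to Atrip and Trex1 together had 1041.0 in CM and 1646.3 in E/EM cells, a log2 ratio of -0.66. A SubC probe set given to the same pair had 291.0 in CM cells and 129.6 in E/EM cells, the E/EM signal under the floor, which gives only a bound of at least 1.497-fold higher in CM cells.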

How the results depend on the processing

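Irf8, Isg20 and Mx1 stayed at least 2-fold lower in CM cells under the 8 settings other than the fold rule. Oas2 was called under 6 of them. It was not measured with the floor doubled, because its CM signal is close to the floor, or on SubA alone, because its probe set is on SubB. Each of these genes has 1 probe set, so only quantile normalization and centring could move its ratio. The other settings could only keep or drop the gene. With quantile normalization the log2 ratios were -2.31 for Irf8, -2.30 for Isg20, -1.54 for Mx1 and -1.67 for Oas2. The count of members at least 2-fold higher was 0 with the floor doubled, which drops Ifit2, and 2 with the brightest probe set, which adds Eif2ak2 at 1.49. The weaker signal of that Eif2ak2 probe set was 1.52 times the floor, and with the floor doubled the log2 ratio of Eif2ak2 was -0.0018. The 1.5-fold rule gave 8 lower and 7 higher members. The median of the members stayed between -0.04 and 0.01. That of the other interferon pathway genes was 0.020 with the floor halved. The ratios of Irf8, Isg20, Mx1, Oas2 and Ifit2 kept their sign under quantile normalization and centring. As each rests on 1 probe set, the other settings could not change them. Of the members' ratios, 6 changed sign over the settings, those of Eif2ak2, Ifih1, Ifngr2, Ly6e, Parp14 and Rsad2. With the floor halved, Ifit3 was at least 2.30-fold and Usp18 at least 2.92-fold higher in CM cells. No paired analysis was possible because each group is 1 array. Signals under 2 times the floor limit Oas2, Ifit2 and the SubB probe set of Eif2ak2.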
